A study of Mus musculus with 6 samples.

Results

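The glycolytic pathway of RVP3 tumour cells was followed through 10 genes: the glucose transporter Slc2a1, the enzymes Hk2, Gpi1, Pfkp, Aldoa, Pgk1, Pgam1, Eno1 and Ldha, and the kinase Pdk1, which acts on pyruvate dehydrogenase. The genes were chosen by name, and all probes of the deposited value table that the platform annotation assigns to one of them were taken. Of the 10 genes 7 had such probes, 9 in all among the 15131 probes of that table; Hk2, Gpi1 and Eno1 had none and were not analysed here. The expression data come from 6 bead arrays (Illumina, Mouse WG-6), 3 of cells treated with DAC/TSA and 3 of untreated control cells. Treated cells were grown for 24 h in fresh medium, then for 48 h with 3 µM DAC (a deoxycytidine analogue that blocks DNA methyltransferases), and finally for 24 h with 30 ng/ml TSA (trichostatin A, a histone deacetylase inhibitor). Both groups were the RVP3 line, of C57BL/6 strain background, which the study used as cells that do not respond to IFNγ. All arrays stem from this single line, the labels name no vehicle for the control cells, and the effects of DAC and of TSA cannot be told apart.

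Glycolysis splits glucose into pyruvate and yields ATP without oxygen. Glucose enters through transporters of the GLUT family, is trapped by hexokinase and is committed to the pathway by phosphofructokinase, whose step is a main point of control. Most of the later enzymes work close to equilibrium, with pyruvate kinase as the exception. Lactate dehydrogenase turns pyruvate into lactate, while pyruvate dehydrogenase sends it into mitochondria unless one of its kinases switches that enzyme off. Tumour cells are known for high glycolytic rates even with oxygen present, and the transcription factors HIF-1 and Myc drive many of these genes.

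Between 14101 and 15056 of 45281 probes were detected on the DAC/TSA arrays and between 13227 and 14261 on the control arrays (detection p-value of at most 0.01). Of 10 listed leukocyte markers 4 were measured. Lyz1, Cd52 and Laptm5 rose and Cd79b fell, although Laptm5 and Cd79b lost their calls under median scaling (adjusted p = 0.0182 and 0.0162). The summed signal of the 4 ranged from 357 to 382 units after DAC/TSA and from 180 to 200 units in control cells. Lyz1, Cd52 and Laptm5 were detected on no control array and Cd79b on no DAC/TSA array, so each sum includes signals at background. Of 6 endothelial markers 3 were measured, with summed signals of 1710 to 1956 units after DAC/TSA and 397 to 442 units in control cells. Of these Egfl7 rose (log2 change 3.24), Esam fell (-0.68, but adjusted p = 0.0285 under median scaling) and Kdr gave no call (-0.05). The defining markers Ptprc, Pecam1 and Cdh5 were not measured, and whether other cells had a part in the results below was not tested. The signals come from bulk RNA, so fewer cells that express a gene and less RNA per cell cannot be told apart.

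The 250 bases before the start site are shown for the 4 genes on which the results turn, namely both genes that passed the test, the gene closest to its threshold and the gene whose probes disagreed. They are RefSeq sequences of the GRCm38.p6 build, read 5′ to 3′ on the gene's own strand. Where a gene had several windows, the one farthest upstream is shown. Capitals mark ACGTG on either strand (CACGT on the other), the core of the element that HIF-1 binds. Where both strands match at one place the letters form CACGTG, the E-box recognised by Myc and by USF factors. The windows are chr4:119108495-119108744 (plus strand) for Slc2a1, chr13:6648772-6649021 (minus strand) for Pfkp, chrX:106186850-106187099 (plus strand) for Pgk1 and chr7:46845554-46845803 (plus strand) for Ldha.
Slc2a1: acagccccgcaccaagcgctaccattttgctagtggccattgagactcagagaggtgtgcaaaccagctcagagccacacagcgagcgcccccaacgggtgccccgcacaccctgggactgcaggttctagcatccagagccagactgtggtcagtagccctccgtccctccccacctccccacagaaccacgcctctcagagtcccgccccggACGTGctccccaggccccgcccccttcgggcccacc
Pfkp: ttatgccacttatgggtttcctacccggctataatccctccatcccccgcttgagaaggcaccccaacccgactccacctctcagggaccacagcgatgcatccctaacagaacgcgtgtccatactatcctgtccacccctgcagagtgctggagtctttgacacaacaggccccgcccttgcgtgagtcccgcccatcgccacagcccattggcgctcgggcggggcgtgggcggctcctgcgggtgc
Pgk1: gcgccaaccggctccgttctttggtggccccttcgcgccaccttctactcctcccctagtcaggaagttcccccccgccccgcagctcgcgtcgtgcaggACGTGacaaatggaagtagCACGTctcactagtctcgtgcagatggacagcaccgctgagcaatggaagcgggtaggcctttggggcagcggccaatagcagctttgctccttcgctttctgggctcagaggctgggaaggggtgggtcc
Ldha: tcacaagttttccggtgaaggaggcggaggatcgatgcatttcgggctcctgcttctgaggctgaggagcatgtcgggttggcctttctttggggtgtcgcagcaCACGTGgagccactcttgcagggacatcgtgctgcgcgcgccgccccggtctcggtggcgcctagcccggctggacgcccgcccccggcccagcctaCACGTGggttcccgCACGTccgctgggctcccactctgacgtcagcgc

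Among the 7 measured genes 5 (Slc2a1, Aldoa, Pgk1, Pgam1 and Ldha) had ACGTG in at least 1 of their RefSeq windows, against 18.5% of 27018 genes in the same table. The printed window of Ldha held 2 E-boxes, while 6.02% of 32841 windows held one. The other Ldha window held 0 E-boxes and 0 ACGTG. Pfkp, which showed the largest change below, had no ACGTG in its single window, and neither did Pdk1 in both of its windows. All 4 printed windows held more CG dinucleotides, the target of DNA methylation, than the median of 6 over all windows. The counts in the printed windows were 13 in Slc2a1, 16 in Pfkp, 17 in Pgk1 and 25 in Ldha (9 in its other window), against an upper quartile of 16. These matches describe the letters only.

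Treatment with DAC/TSA significantly upregulated 2 of the 7 genes, Pfkp and Slc2a1, and lowered none. Over all named genes 27.0% were higher and 25.8% lower, and 52.8% passed in either direction. The count of 2 in 7 called higher lies near the share of 27.0%. The count of 0 in 7 called lower lies below the share of 25.8%, a difference that was not tested. Among the 8033 genes detected in both groups 24.5% were higher and 26.9% lower. By probes 4 of the 9 were called higher, against 22.4% of all tested probes, and 0 were called lower, against 23.4% (45.8% in either direction). The 4 include both Pfkp probes and the dimmer Pgk1 probe, which was detected on the treated arrays alone. The shares cover all tested probes, also those detected in a single group. The median log2 change of the 7 genes was 0.14, against -0.02 over the 8734 genes tested. Each gene is represented in these counts by its brightest probe, and a call is an adjusted p under 0.01 (limma, Benjamini-Hochberg adjustment over 16760 probes). Signals are given below as quantile-normalised log2 values, errors of changes are standard errors (SE) of the fit and errors of levels are standard deviations (SD, n = 3). The plot of the signals by array shows all 9 probes.

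**Figure D1:**
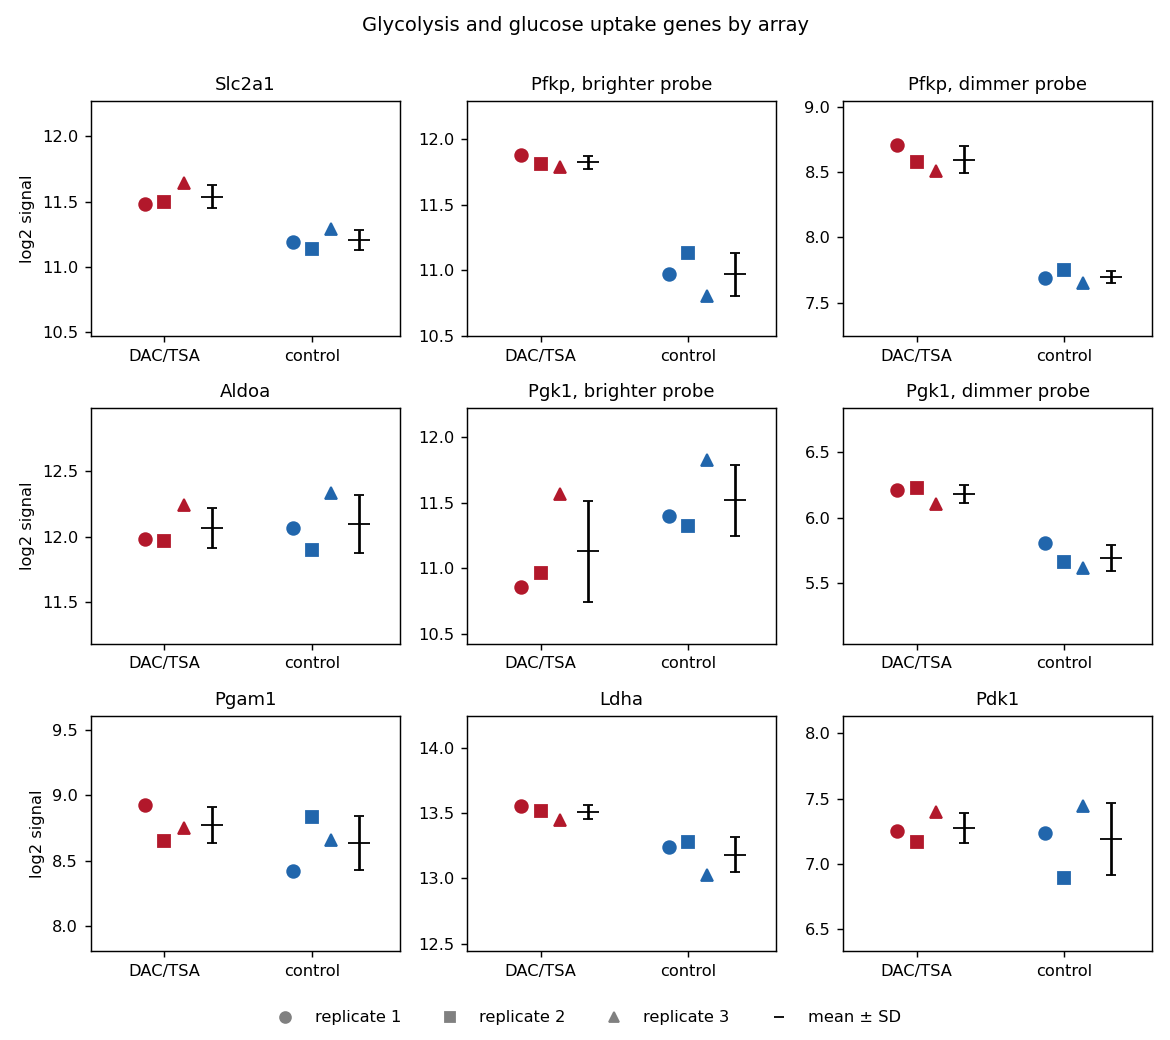
Quantile-normalised log2 signal of the 9 probes in the 3 DAC/TSA arrays (left in each panel, red) and the 3 control arrays (right, blue), with symbols for the replicate numbers, black marks for mean ± SD, and the same span of 1.8 log2 units in all panels. Both Pfkp probes separate the groups most clearly, whereas Aldoa, Pgam1, Pdk1 and the brighter Pgk1 probe overlap.

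At the entry of the pathway, Slc2a1 was moderately upregulated. This gene encodes GLUT1, the transporter that supplies most proliferating cells with glucose. Its log2 signals were 11.48, 11.49 and 11.64 after DAC/TSA and 11.19, 11.14 and 11.29 in control cells. All treated arrays lay above all control arrays, but the gap was small, 1.26-fold on average (log2 change 0.33 ± 0.09, SE, adjusted p = 0.00694). The call was lost under median scaling (log2 change 0.40, adjusted p = 0.134) and with neqc background correction (adjusted p = 0.0193). It was also lost when any single array other than control replicate 3 was left out, the adjusted p then reaching at most 0.0331, with log2 changes of 0.28 to 0.37 over the 6 such fits.

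Pfkp showed the largest increase of the 7 genes. It encodes the platelet-type subunit of phosphofructokinase, the enzyme of the committed step. Its brighter probe read 11.88, 11.81 and 11.79 after DAC/TSA, against 10.97, 11.13 and 10.80 in control cells. Its dimmer probe read 8.71, 8.57 and 8.50 after DAC/TSA, against 7.69, 7.75 and 7.65 in control cells. On both probes every treated array was higher than every control array, and the gap between the groups was wider than the spread within either of them. The increase was 1.81-fold by the brighter probe (log2 change 0.86 ± 0.10, SE, adjusted p = 1.18e-05) and 1.86-fold by the dimmer one (0.90 ± 0.09, adjusted p = 3.35e-06). No alternative setting removed this call, the log2 change ranging from 0.77 to 0.94 over 13 fits for the brighter probe.

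Downstream of phosphofructokinase, the probes gave no call for Aldoa or Pgam1. Aldoa encodes the aldolase that splits fructose 1,6-bisphosphate. It read 11.98, 11.97 and 12.24 after DAC/TSA and 12.06, 11.90 and 12.33 in control cells. The groups overlapped fully, with a log2 change of -0.03 (95% confidence interval -0.29 to 0.23, adjusted p = 0.831, limma). Pgam1, the phosphoglycerate mutase of most tissues, read 8.93, 8.66 and 8.75 after DAC/TSA and 8.42, 8.83 and 8.66 in control cells. Its groups overlapped as well, with a log2 change of 0.14 (95% confidence interval -0.11 to 0.39, adjusted p = 0.326).

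The 2 probes of Pgk1 went in opposite directions. This X-linked gene encodes phosphoglycerate kinase, which makes the first ATP of the payoff phase. The brighter probe read 10.85, 10.96 and 11.57 after DAC/TSA and 11.40, 11.33 and 11.83 in control cells. It was lower in each treated array than in the control array of the same number, by differences of -0.55, -0.37 and -0.26, but DAC/TSA replicate 3 lay above control replicates 1 and 2. The log2 change of -0.39 ± 0.18 (SE) therefore did not pass the test (adjusted p = 0.0742), whereas it passed with the replicate number as a block (adjusted p = 0.000394) and without DAC/TSA replicate 3 (log2 change -0.61, adjusted p = 0.000901). The dimmer probe read 6.21, 6.23 and 6.10 after DAC/TSA, against 5.80, 5.66 and 5.62 in control cells. It was detected on all 3 treated arrays and not well above background on any control array, so that it was at least 1.32-fold higher (adjusted p = 0.00052). This bound is taken against the lowest detected signal on each array, or the probe's own signal where that was higher. The adjusted p is that of the fitted log2 change (0.49, limma). Here and for the bounds given below, the bound itself was not tested. Averaging both probes gave a log2 change of 0.05 (adjusted p = 0.696). The probe sequences were not used here, and which transcripts each probe reads was not checked.

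At the exit of the pathway, Ldha came close to the threshold and Pdk1 gave no call. Ldha encodes the muscle-type subunit of lactate dehydrogenase, which favours the making of lactate. It read 13.55, 13.51 and 13.45 after DAC/TSA, against 13.24, 13.28 and 13.03 in control cells. All treated arrays were above all control arrays, by 1.25-fold on average (log2 change 0.32, 95% confidence interval 0.12 to 0.53, adjusted p = 0.0105). It passed with the replicate block (adjusted p = 0.00127), and its adjusted p ranged from 0.00127 to 0.119 over 13 alternatives. Pdk1, a kinase that shuts down pyruvate dehydrogenase and is a known target of HIF-1, read 7.25, 7.17 and 7.40 after DAC/TSA and 7.24, 6.89 and 7.44 in control cells. Its groups overlapped, with a log2 change of 0.08 (95% confidence interval -0.20 to 0.36, adjusted p = 0.609).

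In all, 5 of the 9 probes had every DAC/TSA array above every control array, namely Slc2a1, both Pfkp probes, the dimmer Pgk1 probe and Ldha, and 0 had every treated array below. Over all tested probes 29.9% were separated upward and 32.7% downward. All of the probes except the dimmer Pgk1 probe were detected on all 6 arrays. The plot of each gene under other processing settings shows how far each change moved.

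**Figure D2:**
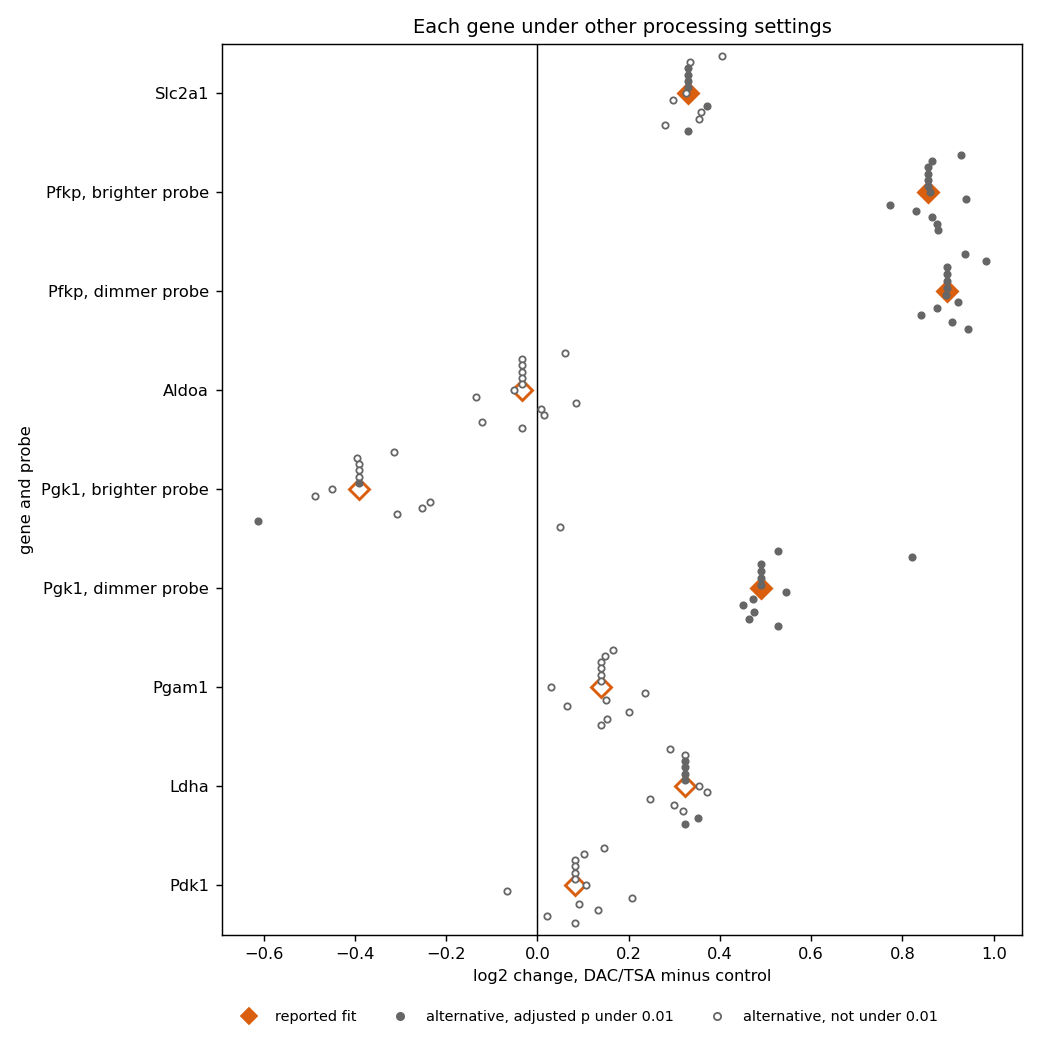
Log2 change (DAC/TSA minus control) of the 9 probes in the reported fit (orange diamonds) and in the alternative fits (grey points), filled where the adjusted p was under 0.01 and open otherwise. Pfkp stays filled throughout, Slc2a1 and Ldha mix filled and open points near 0.3, and the brighter Pgk1 probe spreads from -0.61 to 0.05.

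The 7 genes varied between arrays of the same group as well. Before normalisation, replicate 3 had the highest mean signal of each group (296 units after DAC/TSA and 279 in control cells). It also had the lowest median signal (42.6 and 40.0 units). Differences between cultures and between arrays cannot be told apart here. In 4 of them (Slc2a1, Aldoa, Pdk1 and, by its brighter probe, Pgk1) replicate 3 had the highest signal of both groups, a pattern noticed after the values had been seen. The same held for 21.3% of all genes tested. The excess of replicate 3 over the mean of replicates 1 and 2 was largest for the brighter Pgk1 probe, at 0.66 log2 units after DAC/TSA and 0.47 in control cells. For Aldoa it was 0.27 after DAC/TSA and 0.35 in control cells, and for Pdk1 0.18 after DAC/TSA and 0.38 in control cells. For these 3 genes this spread within groups was as large as or larger than the difference between the group means. Pfkp and Ldha deviated the other way, with replicate 3 lowest in both groups. For Ldha the deviation was -0.09 after DAC/TSA and -0.23 in control cells. The plot of these deviations shows that the signs agree between groups for all probes but Pgam1.

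**Figure D3:**
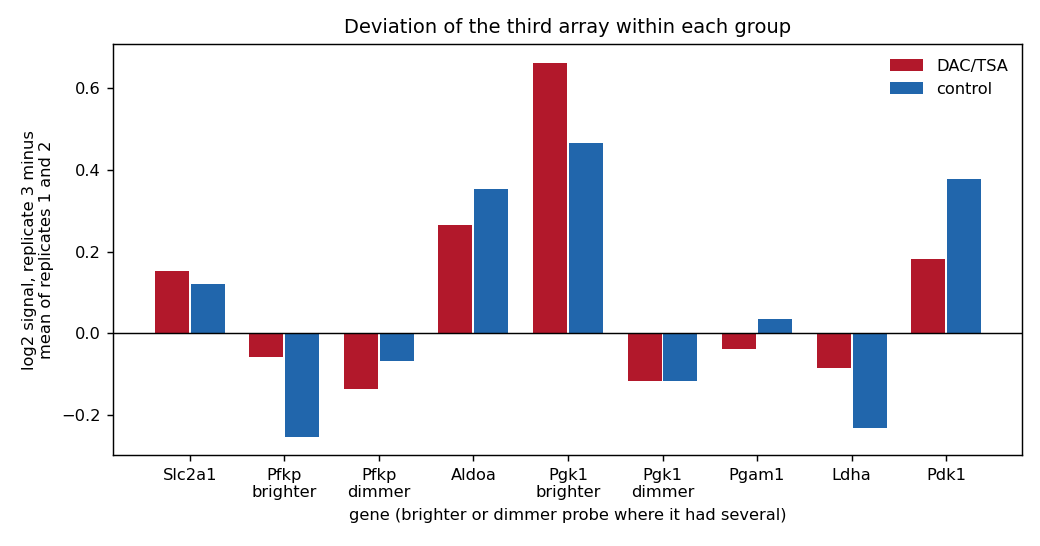
Log2 signal of replicate 3 minus the mean of replicates 1 and 2, for each of the 9 probes, in the DAC/TSA group (red, left bar) and the control group (blue, right bar). The brighter Pgk1 probe stands highest at 0.66 and 0.47, while Pfkp and Ldha lie below 0 in both groups.

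Other genes of the same steps went in both directions. The list of further glycolytic enzymes held 21 genes, of which 9 were measured, 4 rose and 2 fell, with a median log2 change of 0.01. All 3 subunit genes of phosphofructokinase changed. Pfkm, the muscle-type subunit, had a log2 signal of 10.23 ± 0.05 after DAC/TSA and 9.34 ± 0.07 in control cells (SD), and rose 1.86-fold (log2 change 0.89 ± 0.09, SE, adjusted p = 2.59e-06), as did its other 2 probes (0.82 and 0.61). Pfkl, the liver-type subunit, fell to 11.50 ± 0.03 after DAC/TSA, against 12.06 ± 0.11 in control cells (log2 change -0.56 ± 0.09, SE, adjusted p = 0.000172). Its dimmer probe had a log2 change of 0.02, and the call was lost under median scaling (adjusted p = 0.0302) and for the mean of both probes (adjusted p = 0.026). Thus 2 of the 3 subunit genes, Pfkp and Pfkm, were raised to a similar extent, and the Pfkl probe moved oppositely.

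Among the remaining steps, Hk1, the hexokinase of most tissues, rose 1.50-fold with detection on 3 treated and 2 control arrays (adjusted p = 0.000527, but 0.0267 under median scaling). Eno2, the neuronal enolase, was detected on all treated and on no control arrays and was at least 2.11-fold higher (adjusted p = 2.76e-07). The ADP-dependent glucokinase Adpgk rose 1.32-fold (adjusted p = 0.00439), a call lost under median scaling (adjusted p = 0.101), with neqc (0.011) and without any one array except DAC/TSA replicate 1 (0.0105 to 0.0279). Tpi1, the triose phosphate isomerase, was 1.26-fold lower by its brightest probe (adjusted p = 0.00641). The dimmest of its 3 probes was higher (log2 change 0.41, adjusted p = 0.00211). The remaining probe had a negative change without a call (-0.51, adjusted p = 0.0267), and the mean of the 3 gave no call (adjusted p = 0.153). The call of the brightest probe was lost under median scaling (adjusted p = 0.0816), with neqc (0.0192) and without DAC/TSA replicate 2 or 3 or control replicate 1 or 2 (0.0153 to 0.0348). No call was made for Gapdh, often used as a loading control (log2 change -0.07, adjusted p = 0.565), for the pyruvate kinase gene Pkm (-0.07, adjusted p = 0.513) or for the muscle enolase Eno3 (0.01, adjusted p = 0.961).

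**Figure D4:**
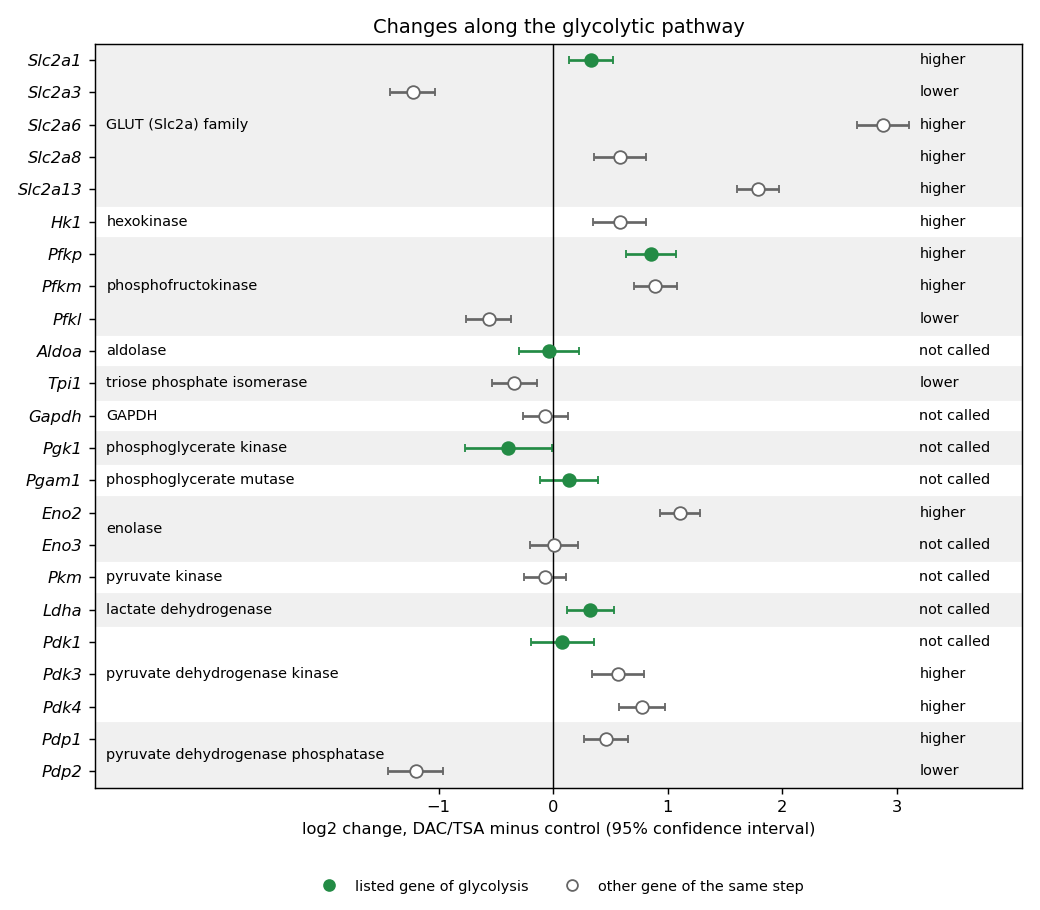
Log2 change (DAC/TSA minus control) with its 95% confidence interval for the brightest probe of each measured gene, ordered along the pathway; filled green points are the 7 measured genes of glycolysis and glucose uptake, open points are other genes of the same step, and the right margin gives the call at an adjusted p under 0.01. Pfkp and Pfkm lie together near 0.9 while Pfkl lies at -0.56, and Aldoa, Gapdh, Eno3 and Pkm lie near 0.

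Other transporters of the GLUT family had changes of larger size than Slc2a1, although the differences between genes were not tested. Of 18 listed genes of glucose and lactate transport 7 were measured, 4 rose and 1 fell, with a median log2 change of 0.59. Slc2a6, a hexose transporter of lysosomal membranes, read 8.44 ± 0.12 after DAC/TSA and 5.56 ± 0.15 in control cells (SD), where no array detected it, and was at least 6.28-fold higher (adjusted p = 8.25e-10). Slc2a13, which carries myo-inositol with protons, rose 3.46-fold (log2 change 1.79 ± 0.09, SE) by its brighter probe, and the dimmer one, detected on no control array, was at least 2.79-fold higher. Slc2a8 rose 1.50-fold (adjusted p = 0.000419). In contrast Slc2a3, the high-affinity transporter GLUT3, fell to 6.27 ± 0.09 after DAC/TSA, against 7.50 ± 0.08 in control cells, 2.34-fold lower (log2 change -1.22 ± 0.09, SE, adjusted p = 2.65e-07). Emb, a partner protein of lactate transporters, rose 1.54-fold (adjusted p = 0.00135, but 0.1 under median scaling). The lactate exporter Slc16a3 (MCT4) missed the threshold by its brighter probe (log2 change 0.36, adjusted p = 0.0132). That probe passed with the replicate block (adjusted p = 0.00167) and without DAC/TSA replicate 2 (0.00892). The dimmer Slc16a3 probe, detected on no control array, gave no call (log2 change 0.01, adjusted p = 0.914). Both probes of Bsg, which carries lactate transporters to the membrane, were detected on all treated and on no control arrays. The brighter was at least 1.02-fold higher and missed the threshold (adjusted p = 0.011), and the dimmer was at least 1.08-fold higher and passed it (adjusted p = 6.1e-05). The brighter Bsg probe passed under several alternatives, among them neqc (adjusted p = 0.00528), the replicate block (0.00149) and leaving out DAC/TSA replicate 3 (0.0049).

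The kinases and phosphatases that set pyruvate dehydrogenase against each other moved on both sides. Of 14 listed genes of pyruvate entry 9 were measured, 4 rose and 1 fell, with a median log2 change of -0.03. Unlike Pdk1, its relatives Pdk3 and Pdk4 passed the test. Pdk3 rose 1.48-fold (adjusted p = 0.000498, but 0.0647 under median scaling), and Pdk4, detected on no control array, was at least 1.36-fold higher (adjusted p = 1.49e-05). The difference between these changes and that of Pdk1 was not tested. Of the opposing phosphatases, Pdp1 rose 1.38-fold (adjusted p = 0.000616, but 0.0319 under median scaling), while Pdp2 fell to 8.06 ± 0.16 after DAC/TSA, against 9.26 ± 0.17 in control cells, 2.29-fold lower on its brightest probe (adjusted p = 1.8e-06) and lower on both others. Pcx, the pyruvate carboxylase that refills the citric acid cycle, rose 1.92-fold (adjusted p = 4.94e-06), with detection on 1 control array. The subunit genes Pdha1 and Pdhb gave no call (log2 change -0.14, adjusted p = 0.279, and -0.18, adjusted p = 0.223), but a dimmer Pdhb probe fell by 1.34 on the log2 scale, and the mean of both Pdhb probes was lower (adjusted p = 4.2e-05). Of the enzymes that set fructose 2,6-bisphosphate, the activator of phosphofructokinase, 2 of 5 were measured. Pfkfb4 rose 1.36-fold (adjusted p = 0.000835, but 0.021 under median scaling), and Pfkfb2 gave no call (log2 change -0.12, adjusted p = 0.3).

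Branches of the pathway are described next. The pentose phosphate route, which draws on glucose 6-phosphate for NADPH and ribose, had 7 of 9 listed genes measured, of which 2 rose and 4 fell. Their median log2 change was -0.44, and it was -0.21 if Pgd, undetected on the treated arrays, was set to its bound. Rpe and Rpia, which interconvert the pentose phosphates, fell 2.71-fold (log2 change -1.44 ± 0.09, SE) and 1.96-fold (-0.97 ± 0.10). The transaldolase Taldo1 gave no call (0.06, adjusted p = 0.57), and Tkt and Pgd had lower calls that were lost under median scaling (adjusted p = 0.0306 and 0.0449). That of Tkt was also lost for the mean of its probes (adjusted p = 0.0209) and without control replicate 1 or 2 (0.0129 and 0.0116), and that of Pgd without control replicate 1 (0.0188) or DAC/TSA replicate 1 or 2 (0.011 and 0.0202). H6pd, the hexose 6-phosphate dehydrogenase of the endoplasmic reticulum, rose 1.61-fold (adjusted p = 0.000146, but 0.0415 under median scaling) and the lactonase Pgls rose 1.54-fold by its brighter probe (adjusted p = 0.00263, but 0.0107 and 0.0172 without DAC/TSA replicate 1 or 2). Its dimmer probe had a log2 change of -0.20 without a call, and the mean of both gave none (adjusted p = 0.0625). Genes of gluconeogenesis and glycogen were measured in 11 of 23 cases, of which 5 rose and 1 fell (median 0.20). Pgm1, the phosphoglucomutase that links glycogen to glycolysis, rose 1.74-fold (adjusted p = 7.29e-05), Ugp2 and G6pc3 rose 1.56-fold each, and Phkb rose 1.43-fold (adjusted p = 0.000333, but 0.032 under median scaling). The kinase subunit Phkg2 was 1.46-fold lower by its brighter probe (adjusted p = 0.000971, but 0.0192 under median scaling). The dimmer Phkg2 probe gave no call (log2 change -0.10, adjusted p = 0.5), nor did the mean of both (0.0199).

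In the citric acid cycle, which burns the pyruvate that Pdk1 holds back, 6 of 15 measured genes rose and 0 fell. Their median log2 change was 0.27. Dlst gave no call by its brightest probe (log2 change 0.12) or by another (-0.02), but its remaining probes were lower (-1.41, -0.46 and -0.43). The probe at -1.41 was detected on all 6 arrays (adjusted p = 9.3e-08, limma). For the mean of a gene's probes 6 genes of this list rose and 1 fell. With the replicate block 9 rose, Idh2, Me1 and Me2 being added, and 1 fell, Suclg2 (adjusted p = 0.00228), which was also lower without DAC/TSA replicate 3 (0.00281). Me1 and Me2 are malic enzymes, counted here with the cycle although they are not among its steps. Sdhc, a subunit of succinate dehydrogenase, rose 2.06-fold (log2 change 1.04 ± 0.11, SE), Ogdh 1.79-fold (0.84 ± 0.09), Mdh2 1.70-fold and Cs, the citrate synthase, 1.59-fold. The calls of Mdh2 and Cs were lost under median scaling (adjusted p = 0.0574 and 0.102), and that of Cs also without control replicate 1 or 2 (0.0131 and 0.0115).

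Genes of the hypoxia response moved in both directions. Of 33 listed genes of the hypoxia response 22 were measured, 8 rose and 7 fell, with a median log2 change of -0.15. Hif1a itself, the oxygen-regulated subunit of HIF-1, had a log2 change of -0.43 ± 0.14 (SE, adjusted p = 0.0203), and passed with the replicate block (adjusted p = 0.000203), without DAC/TSA replicate 3 (0.00673) and without control replicate 2 (0.00117). Its partner Arnt was 1.34-fold lower (adjusted p = 0.00168, but 0.0579 under median scaling, 0.0969 for the mean of its probes and 0.0104 without control replicate 2), and Hif1an, the hydroxylase that restrains HIF, was 2.22-fold lower (adjusted p = 1.56e-06). Of the classical HIF targets outside glycolysis, Ankrd37 rose 1.97-fold, Egln3 1.88-fold (adjusted p = 0.0535 under median scaling) and Anxa2 1.87-fold, while Vegfa fell to 8.91 ± 0.04 after DAC/TSA, against 10.48 ± 0.02 in control cells (SD), and Ndrg1 was 1.76-fold lower. A dimmer Anxa2 probe was lower (log2 change -0.63), and the mean of both gave no call (adjusted p = 0.159). Car12 rose 1.48-fold, and Kdm3a was 1.53-fold lower (adjusted p = 0.0699 under median scaling).

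Of 23 listed regulators of glycolytic genes 12 were measured, 4 rose and 5 fell (median -0.11). Txnip, which curbs glucose uptake and whose own transcription follows glucose, rose 1.87-fold (log2 change 0.91 ± 0.10, SE, adjusted p = 8.32e-06), and its relative Arrdc4, detected on no control array, was at least 2.24-fold higher (adjusted p = 2.26e-07). The AMPK subunit genes Prkag1 and Prkab1 rose 1.41-fold and 1.35-fold, both missing the threshold under median scaling (adjusted p = 0.0274 and 0.0307), Prkab1 also without DAC/TSA replicate 2 (0.0124). Myc fell to 7.86 ± 0.12 after DAC/TSA, against 8.62 ± 0.12 in control cells, 1.69-fold lower (adjusted p = 3.34e-05). The E-box factors Usf1 and Usf2 were 1.63-fold and 1.71-fold lower (Usf2 with an adjusted p of 0.0106 under median scaling), and Klf4 was 1.58-fold lower (adjusted p = 0.0121 under median scaling). All of these lists were chosen with earlier results of these data known, and their counts are descriptions beside the background of 27.0% higher and 25.8% lower.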

How the data were processed

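Total RNA of cultured RVP3 cells was hybridised to Illumina Mouse WG-6 bead chips, 3 arrays per group, with groups and numbers as the sample labels give them. The authors deposited probe intensities on a linear scale and a detection p-value for each of 45281 probes and each array, extracted with BeadStudio. The authors also deposited a table of log2 values for 15131 probes, which they had normalised by quantiles. Quantile normalisation of the log2 intensities, computed here, matched that table to within 4.97e-14 log2 units. Background subtraction and the genome build are not given in the sources used here.

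Following the study's methods, probes with a detection p-value above 0.01 on all arrays were removed. The authors' table of 15131 probes was not reproduced by this filter, which left 16760 probes. Differences were tested two-sided in limma 3.58.1 (lmFit, then eBayes; R 4.3.3), without a covariate, with Benjamini-Hochberg adjustment over these probes and an adjusted p threshold of 0.01. The fit was also run on simulated arrays that were independent of each other and held few changed probes. That setting differs from these data, and no result given here rests on it. The number of arrays limits the precision, and p-values measure the spread between arrays from cultures of one line. Genes were named through the platform annotation, updated by Entrez identifier: 13126 probes of the log2 table had 1 symbol, 6 had several and 1999 had none, and 3634 tested probes carry no name. The brightest probe stood for a gene in counts, and every probe of the 7 genes is reported. Of other lists, up to 4 called genes per direction with the largest changes are named, with other genes of the same step; the second probes of these genes were chosen for mention after their values were seen. The members and lists were chosen with earlier results of these data known. Slide and scan were not given and could not be tested as batches.

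Replicate numbers were checked for pairing. Deviations from the group means correlated at 0.34, 0.24 and 0.65 between DAC/TSA and control arrays of number 1, 2 and 3, all above 0.1. Control 2 correlated as highly with DAC/TSA 1 (0.37) and control 1 with DAC/TSA 2 (0.22), so that the data set only number 3 apart and do not match numbers 1 and 2. On the rule that every same-number correlation exceeds 0.1, a fit with the number as a block was run beside the reported one. The labels do not say what a number stands for. Promoter windows came from RefSeq, and all 7 genes matched by symbol. The alternatives were median scaling, neqc, the authors' log2 table, a filter for detection on every array of a group, no filter, the replicate block, each array left out, the mean of a gene's probes and a threshold of 0.05.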

Additional observations from a re-analysis of the deposited data

How the results depend on the processing

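Pfkp kept its direction and its call under every alternative run, and no call of the 7 genes changed direction. The number of genes called higher, 2 in the reported fit, was 1 under median scaling and 1 with neqc, Slc2a1 being the gene lost, and ranged from 1 to 2 when single arrays were left out. Without DAC/TSA replicate 3 this number was 2 because Ldha passed (adjusted p = 0.00931, limma) while Slc2a1 did not (0.023). It was 3 with the authors' log2 table, with the stricter filter, with no filter, with the replicate block, with the mean of a gene's probes and at a threshold of 0.05, Ldha being the gene added. The number called lower, 0 in the reported fit, was 1 (Pgk1) with the replicate block and ranged from 0 to 1 when single arrays were left out, Pgk1 being called without DAC/TSA replicate 3. Beside these calls of Ldha and Pgk1 the block changed none of the 7 genes. Leaving out single arrays gave 3119 to 3777 higher and 3128 to 4035 lower probes over all probes. Under median scaling 2032 probes were higher and 1286 lower (61.2% of calls higher, against 48.8% in the reported fit with 3748 and 3926), and 34 of the 64 called genes of the other lists lost their call. The calls that remained under it were 2 higher and 0 lower of the other glycolytic enzymes, 2 higher and 1 lower for pyruvate entry, 1 higher and 2 lower for pentose phosphate enzymes, 3 higher and 0 lower for gluconeogenesis and glycogen, 2 higher for the citric acid cycle, 3 higher and 3 lower for hypoxia genes 2 higher and 2 lower for the regulators, 0 for fructose 2,6-bisphosphate control, 3 higher and 1 lower for glucose and lactate transport, 2 higher and 0 lower of the leukocyte markers and 1 higher and 0 lower of the endothelial markers. The cause was not tested. The plot of each gene under other settings gives the single fits. With 3 arrays per group, changes near 0.3 log2 units such as those of Slc2a1 and Ldha lie at the limit of what the test called.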

Other observations

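The genes outside the list whose profile over the 6 arrays lay closest to the mean profile of the 7 genes were Dpp3, Atp10d, Miip, Bmpr2 and Srpk1, at Euclidean distances of 0.03 to 0.08 log2 units after centring. Their log2 changes ranged from 0.18 to 0.20, and none passed the test (adjusted p from 0.0828 to 0.109, limma). The 7 genes themselves lay farther from their own mean, from 0.19 for Slc2a1 to 0.88 for Pgk1 and 0.90 for Pfkp, so that the mean profile resembles few of them.

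Replicate 3 was the highest array of both groups in 10 of 15 measured genes of the citric acid cycle list, Me1 included. The same held for 10 of 22 hypoxia genes, among them Hif1a, Egln3, Car9, P4ha1 and Kdm3a, against 21.3% of all genes tested. It was the lowest array of both groups in 31.6% of all genes tested, and in 0 of 9 other glycolytic enzymes was it the highest. These counts were made after the values had been seen, and no test was run on them.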
